A study of Mus musculus with 5 samples.

Results

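The centromere-proximal stretch of mouse chromosome 7 is the part of the array that lies farthest from the β-major promoter on the centromeric side. Its members are the first 20000 of the 57765 chromosome 7 probes (34.6%) when the probes are ranked by the running number in their identifiers. The array holds 385000 probes in all, for 7 mouse chromosomes. The stretch starts 37872 probes and ends 17873 probes from the viewpoint, the fragment with the β-major promoter, which was placed at rank 37873 from the signal peak of the arrays. At 60 kb for each 29 probes these distances are estimated at 78.4 and 37.0 Mb. The deposited files give every probe the position 0, so places are named here by rank and by distance in probes, and which genes they hold was not analysed here. The running numbers skip probes: the stretch kept 60.4% of the numbers it spans and the rest of chromosome 7 kept 80.2%. A distance counted in probes is thus not a fixed length of DNA. All Mb estimates given here use the same spacing for every rank and take no account of the skipped numbers. They are rough values and are probably too low for the stretch, where more numbers are skipped. The coordinates the paper gives for the globin locus are also larger than the longest of these estimates. The submitters' design text states that probes resembling abundant repeats, or with several matches in the genome, were taken out of the probe set. Whether the skipped numbers are those probes was not tested. The members were chosen by probe order relative to the viewpoint, whose rank was read from the same signals, and the end of the stretch was drawn with the strong contacts of these arrays known, so the low number of such contacts is a description.

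4C measures how often distant DNA is captured by ligation to a chosen fragment, the viewpoint. Fixed chromatin is digested with a restriction enzyme and ligated, inverse PCR from the viewpoint amplifies its ligation partners, and these are hybridized to probes beside the restriction sites. Contacts become rarer with distance along the chromosome, and an interacting region far away shows as a group of neighbouring probes with positive signals rather than as a single one. The β-globin genes and their locus control region form an active chromatin hub in erythroid cells, and the locus contacts other active gene loci over long distances. α-Amanitin binds RNA polymerase II and blocks initiation and elongation, whereas DRB inhibits the kinases needed for productive elongation.

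The cells were fetal liver cells of mouse embryos at day 14.5, a tissue rich in erythroid precursors. 2 arrays (A and B) came from untreated cells, which the study cultured without drug, for 5 h by its methods. Another 2 (A and B) came from cells given α-amanitin for 5 h, and 1 from cells given 100 µM DRB for 3 h. Drug and incubation time thus cannot be told apart between the DRB and untreated arrays. The α-amanitin concentration is 100 mg/ml in the sample labels and 100 µg/ml in the study's methods. Both samples with the letter A carried Cy3, and the B samples and the DRB sample carried Cy5, so replicate letter and dye cannot be told apart. The embryos behind each sample are not stated, and the spread between duplicates may be partly technical.

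Strong contacts were sparse in the stretch. For each array the signals of 29 consecutive probes were averaged at every probe position, which gives 19972 windows in the stretch of 57737 on chromosome 7. A window counted as positive when its running mean reached a threshold set for that array, at which windows of randomly shuffled chromosome 7 signals made up less than 5% of those above it (a false discovery rate of 0.05). The thresholds were 6845 and 7018 intensity units in untreated A and B, 7812 and 6970 in α-amanitin A and B, and 8016 in the DRB array. In the stretch 65 windows (0.325%) passed in untreated A, against 3.81% over all of chromosome 7. In untreated B 17 windows (0.0851%) passed, against 4.08% over the chromosome. α-Amanitin A had 73 positive windows (0.366%, against 2.27%), and α-amanitin B had 58 (0.29%, against 3.77%). In the DRB array 39 windows (0.195%) passed, against 1.98%. The stretch thus held 34.6% of the probes of the chromosome and between 0.722% and 5.58% of its positive windows. The untreated and α-amanitin values overlapped: the mean share was 0.205% ± 0.170 (SD, n = 2) in untreated cells and 0.328% ± 0.0531 (SD, n = 2) after α-amanitin, a difference of 0.123 percentage points (exact two-sided permutation test, p = 0.667, where 4 arrays allow no p below 0.333).

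Outside these few windows the stretch was low throughout. The median running mean was 912 and 909 in untreated A and B, 925 and 691 in α-amanitin A and B, and 1359 in DRB, which is 0.133, 0.130, 0.118, 0.0991 and 0.170 of the threshold of each array. Between 95.2% and 96.8% of the windows stayed under 0.5 of the threshold. In 20 blocks of 1000 probes, 13 blocks held no positive window in any of the 5 arrays. The level was not flat: the first 10000 ranks, nearer to the centromere, had higher median running means than the second 10000 in all 5 arrays, 1006 against 798 and 971 against 834 in untreated A and B, 989 against 849 and 732 against 656 in α-amanitin A and B, and 1508 against 1196 in DRB. These first ranks are the farther ones from the viewpoint. They also hold the blocks with the most skipped numbers, where as few as 35.5% of the numbers were kept, and the part of probe spacing in this difference was not tested.

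**Figure D1:**
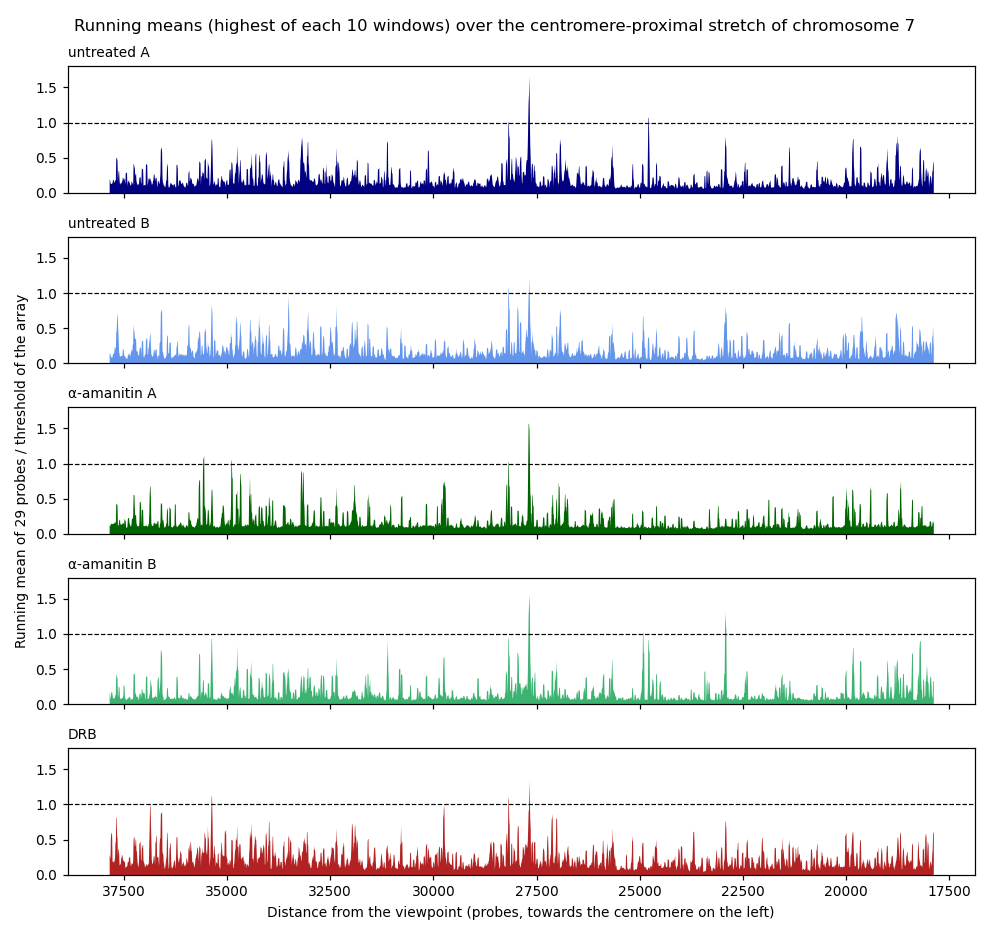
Running means of 29 probes divided by the threshold of the array (y axis, 1 at the dashed line) along the stretch, against the distance from the viewpoint in probes (x axis, farthest from the viewpoint on the left), 1 panel per array; each point is the highest of 10 consecutive windows. Nearly all of the stretch lies far below the line, and the peak 27690 probes from the viewpoint crosses it in all 5 panels.

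The stretch lay between the rest of chromosome 7 and the other chromosomes. Its mean share of positive windows over the 5 arrays was 0.252% ± 0.113 (SD, n = 5). The SDs in this paragraph run over untreated and treated arrays together, so they are not the spread of replicates. The neighbouring ranks above 20000 up to 35000 had 2.45% ± 1.14, and the ranks from 40000 to the telomeric end had 2.94% ± 1.13. The other 6 chromosomes, read against the same thresholds, had 0.0427% ± 0.0161. The stretch was below both other parts of chromosome 7 in 5 of 5 arrays, with mean differences of -2.19 and -2.69 percentage points, and above the other chromosomes in 5 of 5 arrays, with a mean difference of 0.210. No test is given for these differences because the stretch was marked out with them known, and 5 arrays allow no exact two-sided p below 0.0625. The share of single bright probes, those with a signal of 10000 or more, ran in the same order: 2.06% ± 0.735 in the stretch, 3.56% in the neighbouring ranks, 4.72% in the telomeric ranks and 1.41% on the other chromosomes. The DRB array held the most bright probes in the stretch (3.31%, against 1.42% to 2.06% in the other 4 arrays), and it also held the most on the other chromosomes (2.35%, against 0.998% to 1.38%). In the neighbouring and telomeric ranks DRB, at 3.95% and 5.17%, was not the highest array.

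**Figure D2:**
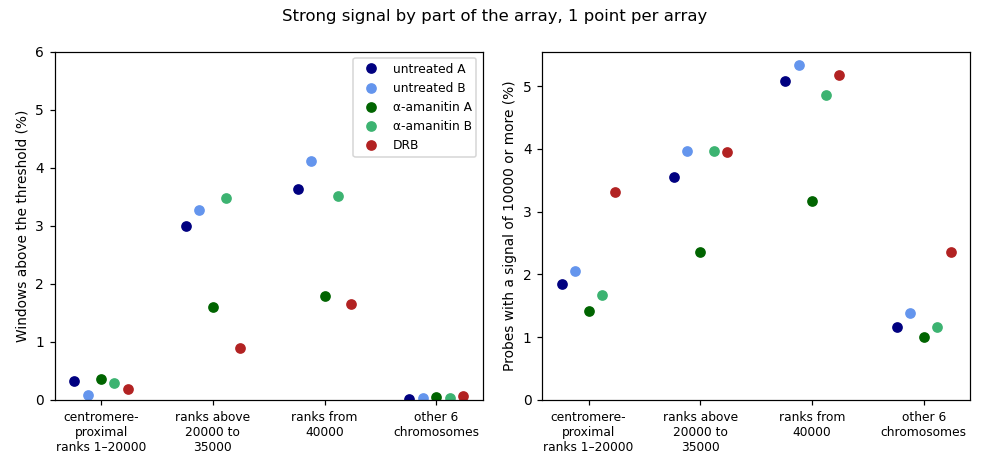
Share of windows above the threshold (left, %) and share of probes with a signal of 10000 or more (right, %) in 4 parts of the array (x axis), with 1 point per array. On the left the 5 points of the stretch lie between 0.0851% and 0.366%, below every point of the other chromosome 7 parts.

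In at least 1 of the 5 arrays 140 windows of the stretch were positive (0.701%, against 5.88% over the chromosome). They fell into 9 places with 392 probes (1.96% of the stretch), of 78 such places on the whole chromosome. 7 of the 9 places were positive in 1 array each, 1 in 4 arrays and 1 in all 5. The first 2271 probes, the last 5030 probes (an estimated 10.4 Mb) and a gap of 5110 probes (an estimated 10.6 Mb) between neighbouring places held no positive window in any array. In both untreated arrays at once 17 windows were positive (0.0851%, against 2.98% over the chromosome), and joining adjacent windows without gaps gave 2 double positive regions, against 63 on the chromosome. When regions that share probes were joined, the stretch still had 2 and the chromosome had 32. These 2 regions lie close together, with 464 probes between their places. Both were positive in the DRB array, where 16 of the 17 windows passed (0.0801%, against 1.76% for these 3 arrays over the chromosome). 1 of the 2 was double positive after α-amanitin, where 26 windows were positive in both arrays (0.13%, against 1.62%), and the other was positive in α-amanitin A only. Of the 17 windows, 6 were also positive in both α-amanitin arrays (0.03% of the stretch, against 1.48% over the chromosome). Over the whole chromosome, the surroundings of the viewpoint included, 1718 windows were positive in both untreated arrays. Of these, 1017 were also positive in DRB and 852 in both α-amanitin arrays. Neighbouring windows overlap, and the 17 windows come from only 2 regions. No place was double positive after α-amanitin without also being double positive in untreated cells. Over all 5 arrays 5 windows were positive throughout (0.025%, against 1.12%).

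**Figure D3:**
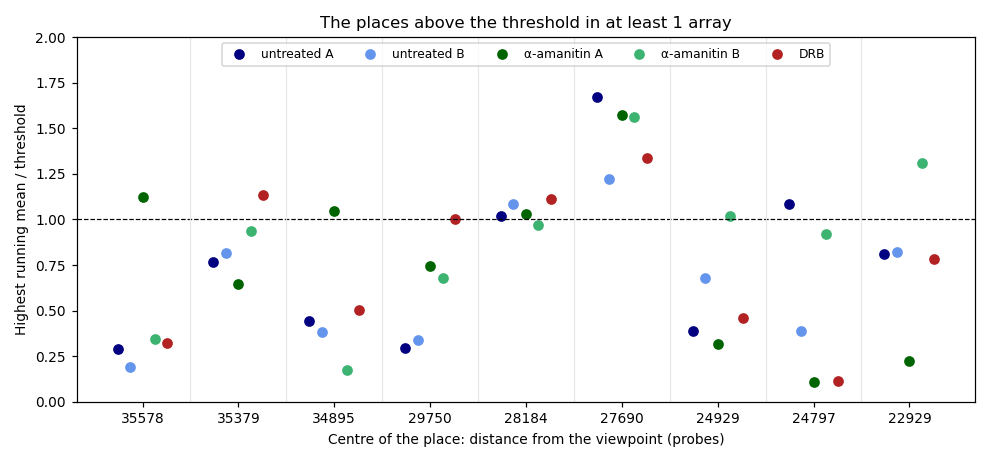
Highest running mean divided by the threshold of the array (y axis, dashed line at 1) in each of the 9 places, ordered by the distance of their centre from the viewpoint in probes (x axis); 1 point per array. The place at 27690 probes has all 5 points above the line, the place at 28184 has 4, and every other place has 1.

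These counts depend strongly on how windows are summarised. When the median of each window was taken instead of its mean, 18 double positive regions were found in untreated cells, of which 14 were double positive after α-amanitin and 17 positive in DRB. They formed 9 places once regions that share probes were joined, among them ranks 9650 to 9698 and 10145 to 10207, which overlap the 2 regions found with the mean. With windows of 15 probes no double positive region was left in the stretch, and with windows of 59 probes, or a false discovery rate of 0.01, 1 was left. When α-amanitin B was left out, both untreated regions were positive after α-amanitin.

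The nearer of the 2 regions (ranks 10173 to 10206 in untreated cells, an estimated 57.3 Mb or 27690 probes from the viewpoint) was the strongest contact of the stretch in every array. Its running mean peaked at 11460 and 8570 in untreated A and B, 12301 and 10891 in α-amanitin A and B, and 10699 in DRB. These peaks are 1.67, 1.22, 1.57, 1.56 and 1.33 times the thresholds, and untreated B, not a treated array, was lowest. The number of positive windows was 39, 6, 35, 29 and 15 in the same order, so the window counts of the α-amanitin arrays lay between those of the untreated duplicates. Across its 67 probes (ranks 10150 to 10216) the positive signal was spread over many probes. There were 15 and 8 bright probes in untreated A and B, 11 and 13 in α-amanitin A and B, and 13 in DRB, and 29 probes were bright in at least 1 array. Only 3 of these were bright in all 5 arrays, at ranks 10177, 10188 and 10202. The probe at rank 10188 read 33650, 47590, 31778, 37584 and 63233 in untreated A and B, α-amanitin A and B and DRB. Some other probes of the region differed strongly between duplicates. The probe at rank 10164 read 64770 and 829 in the α-amanitin duplicates A and B, and the probe at rank 10179 read 26908 in untreated A and 1978 in untreated B. At others the duplicates were alike and the conditions differed. The probe at rank 10201 read 24920 and 37375 in untreated A and B, 1008 and 1637 in α-amanitin A and B, and 36012 in DRB. The probe at rank 10184 read 8132, 7533, 38635, 33621 and 313 in the same order. The region was thus positive in each array through a partly different set of neighbouring probes. Its 3 brightest probes carried 39.0% and 49.7% of the window sum in untreated A and B, 47.4% and 44.9% in α-amanitin A and B, and 58.0% in DRB. In the 25 other untreated double positive regions of the chromosome outside the surroundings of the viewpoint, that share was 25.6% to 65.4% (median 42.7%) in untreated A and 27.5% to 61.5% (median 41.5%) in untreated B.

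The farther region (ranks 9670 to 9708, an estimated 58.3 Mb or 28184 probes from the viewpoint) was built differently. Its running mean reached 1.02 and 1.08 times the threshold in untreated A and B, 1.03 and 0.969 in α-amanitin A and B, and 1.11 in DRB. All 5 arrays lie within a narrow band around the threshold, and α-amanitin B missed it by a small margin. Most of the signal came from the same 3 probes in each array. In α-amanitin A the probe at rank 9674 was bright as well, at 16230 (1725 to 6739 in the other arrays). The 5 positive windows of α-amanitin A all held that probe, and untreated A, untreated B and DRB had 11 each. The probe at rank 9680 read 50046 and 62931 in untreated A and B, 61053 and 65535 in α-amanitin A and B and 61951 in DRB. The probe at rank 9697 read 64181, 62202, 62169, 39206 and 65535 in that order, and the neighbouring probe at rank 9698 read 59209, 64702, 63115, 65535 and 63299. The value 65535 is the highest found in the files, so differences between arrays above it would not show. These 3 probes made up 85.7%, 86.1%, 80.0%, 86.9% and 73.9% of the sum of the peak window in the same order, and in both untreated arrays this is above the range given for the other regions. When each probe signal was limited to the 99th percentile of its array, the farther region had no positive window in any array, while the nearer region stayed positive in all 5. With a threshold computed from the stretch alone, the farther region was positive in all 5 arrays. No array without the viewpoint product was analysed here, so what these probes read by themselves was not measured.

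**Figure D4:**
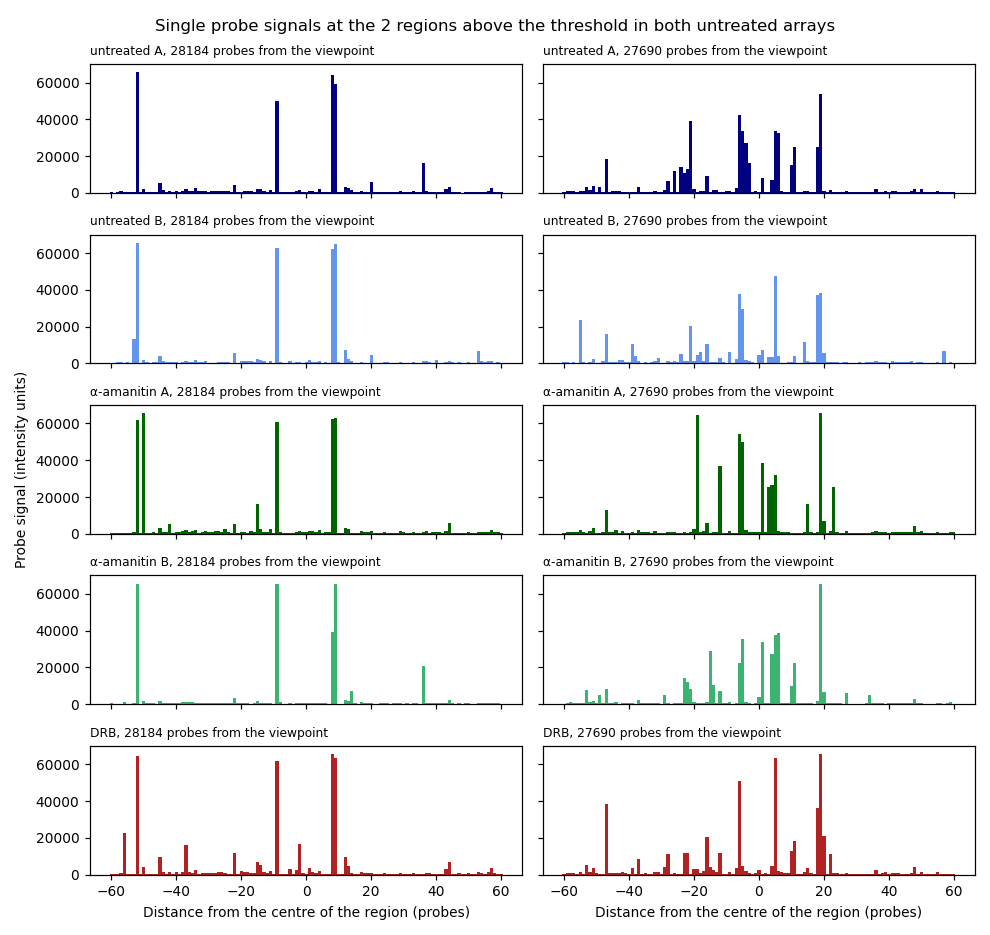
Signal of each probe in intensity units (y axis) against its distance in probes from the centre of the region (x axis) for the farther region, 28184 probes from the viewpoint (left), and the nearer region, at 27690 (right), with 1 row per array. At the left the same 3 probes near the centre stand near the top of the scale in all 5 arrays, and at the right the bright probes are many and change from array to array.

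The 7 places that were positive in 1 array each were of several kinds. In 2 of them (ranks 2272 to 2319 and 2958 to 2998) α-amanitin A passed at 1.12 and 1.05 times the threshold. At ranks 2291 to 2293 the α-amanitin A signals were 63596, 50832 and 62574, and those 3 probes read between 319 and 1354 in the other 4 arrays. At ranks 2982 and 2983 α-amanitin A read 55179 and 65535, and the other arrays read 302 to 3943. The second α-amanitin array therefore did not share these signals, and its peaks reached 0.344 and 0.174 of the threshold. α-Amanitin B was the positive array at ranks 12929 to 12960 (1.02 times the threshold) and 14918 to 14970 (1.31 times). At ranks 12955 to 12957 it read 31974, 51182 and 51758, and untreated B read 23061, 26313 and 25519. The remaining arrays read 286 to 3043 there. The place at ranks 14918 to 14970 came near the threshold in untreated A (0.813), untreated B (0.821) and DRB (0.781). It reached 0.225 in α-amanitin A, so its duplicates under α-amanitin differed more than any of them from the untreated arrays. With probe signals limited to the 99th percentile, ranks 14925 to 14955 were double positive in untreated cells. In that setting they were also positive in α-amanitin B and DRB, but not in α-amanitin A. Ranks 4332 to 4360 and 19096 to 19126 were double positive in untreated cells in that setting too, but positive in no treated array. Untreated A was the positive array at ranks 13055 to 13097, at 1.08 times the threshold. α-Amanitin B reached 0.919 there with several of the same probes: the probe at rank 13069 read 44503 in untreated A and 41882 in α-amanitin B, and the probe at rank 13082 read 41002 and 61996. In untreated B, α-amanitin A and DRB these 2 probes read between 597 and 4214. The brightest probe of untreated A in this place, at rank 13077, was instead shared with untreated B (49411 and 29141). In the treated arrays it read 546 to 1115.

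The DRB array was the only positive one in 2 places. Its highest window outside the 2 regions (ranks 2485 to 2513) reached 1.13 times the threshold, and the other arrays reached 0.767, 0.818, 0.648 and 0.940 in that place. Here 2 probes, at ranks 2493 and 2503, were bright in all 5 arrays and at the top of the scale (65535) in DRB. The other place is a single window (ranks 8109 to 8137), which passed at 1.003 times the threshold in DRB and reached 0.297 and 0.340 in untreated A and B, and 0.745 and 0.678 in α-amanitin A and B. At its probe of rank 8116 the 3 drug-treated arrays read 65535, 53230 and 65535, and the untreated arrays read 867 and 836. At rank 8117 they read 54293, 27704 and 49864 against 432 and 397. Both probes were bright in all 3 treated arrays and in no untreated array. The next DRB window (ranks 987 to 1015) stopped at 0.997 of the threshold, with 8 bright probes in DRB and 0, 4, 3 and 0 in the other arrays. With 1 DRB array none of these differences has a replicate check.

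Bright probes were mostly not shared between arrays. In the stretch 1257 probes (6.29%) were bright in at least 1 array, and 824 of these (65.6%) were bright in 1 array only. 54 probes (4.30% of the bright ones) were bright in all 5 arrays. Singly bright probes made up 55.4% in the neighbouring ranks, 56.5% in the telomeric ranks and 65.3% on the other chromosomes, so in this measure the stretch was close to the other chromosomes. The untreated duplicates shared 144 bright probes, which is 38.9% of those of untreated A and 35.0% of those of untreated B. Untreated A shared more with α-amanitin B, 187 probes (50.5% and 56.0%), than with its own duplicate. The α-amanitin duplicates shared 83 (29.3% and 24.9%). Of the 144 probes bright in both untreated arrays, 55 (38.2%) were also bright in both α-amanitin arrays. That share was 27.3% in the neighbouring ranks, 25.9% in the telomeric ranks and 45.7% on the other chromosomes. Another 20 (13.9%) were bright in none of the 3 treated arrays, against 12.3%, 15% and 5.18% in the same order, a share near that of the rest of chromosome 7. The reverse pattern, bright in all 3 treated arrays and in neither untreated array, was found at 5 probes (0.025% of the stretch, against 0.0667%, 0.0394% and 0.0156% of the probes in those parts), among them the pair at ranks 8116 and 8117.

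**Figure D5:**
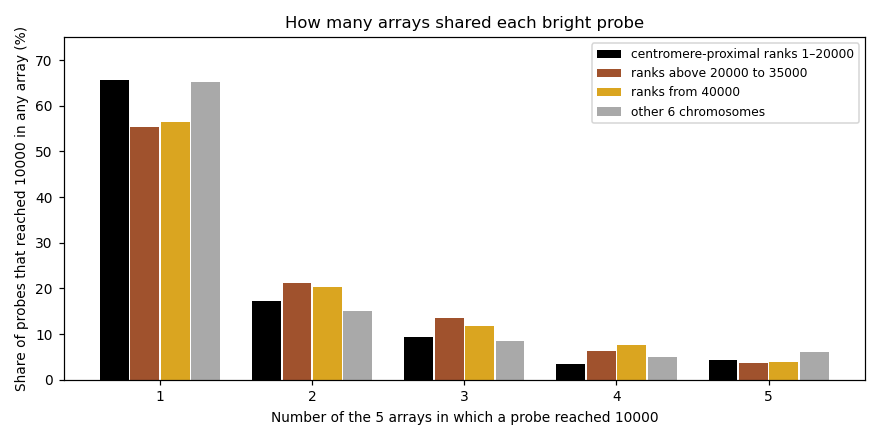
Share of the probes that reached 10000 in any array (y axis, %) by the number of arrays in which they did (x axis, 1 to 5), for the stretch, the 2 other parts of chromosome 7 and the other 6 chromosomes. In the stretch 65.6% of such probes were bright in 1 array and 4.30% in all 5.

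No window of the stretch passed the test for a change after α-amanitin. Over 1991 non-overlapping windows of 29 probes on chromosome 7, 689 of them in the stretch, limma with Benjamini-Hochberg adjustment called 0 (0% of the chromosome), with a lowest adjusted p of 0.621. At an unadjusted p below 0.05 there were 42 windows in the stretch (6.1%, against 5.47% of the chromosome), 38 higher and 4 lower after α-amanitin. This direction did not hold under other scalings: averaging on the log2 scale gave 18 higher and 21 lower, and quantile normalization gave 9 and 12. Without untreated A, limma called 26 of the 689 windows of the stretch and 58 of all 1991, and without untreated B it called 5 and 16, with the lone untreated array assumed to vary like the α-amanitin arrays. The median log2 fold change was 0.05 in the stretch and 0.03 over the chromosome.

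The window with the smallest p (ranks 10934 to 10962) lies on the viewpoint side of the nearer region. Its mean signal was 5378 and 5453 in the untreated arrays, 930 and 533 in the α-amanitin arrays and 798 in the DRB array. The untreated duplicates were nearly equal and all 3 treated arrays were lower. The log2 fold change between α-amanitin and untreated was -2.86 (SE 0.61, limma unadjusted p = 0.00105, adjusted p = 0.621, and 0.148 to 0.998 under the other scalings, window sets and left-out arrays). The untreated signal came from 4 probes, at ranks 10937, 10938, 10941 and 10960. They read 28845, 39679, 44552 and 23613 in untreated A and 19999, 47604, 50372 and 21213 in untreated B. In the 3 treated arrays all 4 read between 449 and 1158. The highest running mean touching this window was 0.790 of the threshold in untreated A and 0.778 in untreated B, so it is no double positive region. In α-amanitin A, α-amanitin B and DRB that highest running mean was 0.465, 0.240 and 0.213 of the threshold. When probes were averaged on the log2 scale the fold change was -0.87. The other windows with the smallest p differed little: ranks 14385 to 14413 had signals of 453 and 365 in untreated and 593 and 443 in α-amanitin arrays (log2 fold change 0.42, SE 0.10), and ranks 14675 to 14703 had 455 and 444 against 672 and 466 (0.40, SE 0.10), all at background level.

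The order of all windows, and not only of the few positive ones, was compared by rank correlation of quantile normalized running means over the 19972 windows of the stretch. The windows overlap and each array is 1 library, so the coefficients are descriptions. Spearman's rho was 0.610 between the untreated duplicates and 0.551 between the α-amanitin duplicates. Untreated and α-amanitin arrays correlated at 0.596 on average (0.544 to 0.689 over 4 pairs), a mean that lay between the values of the duplicates, and the highest pair was untreated A with α-amanitin B. Untreated arrays and DRB correlated at 0.605 on average, and α-amanitin arrays and DRB at 0.619. In the neighbouring ranks the untreated duplicates correlated at 0.667, in the telomeric ranks at 0.682 and on the other chromosomes at 0.615. The α-amanitin duplicates correlated at 0.547, 0.546 and 0.580 in those parts, so their value in the stretch was not the lowest.

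At the end of the stretch no window came near the threshold. The last window inside (ranks 19972 to 20000) had running means of 2333, 1707, 1177, 2353 and 4786 in untreated A and B, α-amanitin A and B and DRB, and the first window outside (ranks 20001 to 20029) had 2525, 1449, 788, 1392 and 462. All 10 values lie under 0.6 of the thresholds. The running mean was lower outside in 4 arrays, most of all in DRB, and slightly higher in untreated A. Moving towards the viewpoint, the first untreated double positive region beyond the stretch (ranks 23123 to 23183, 14720 probes from the viewpoint) held 33 windows. It reached 1.81 times the threshold in both untreated arrays, 1.97 and 2.54 times in α-amanitin A and B, and 1.33 times in DRB, so apart from DRB its peaks were above those of both regions of the stretch.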

How the data were processed

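The signal of 1 channel of each of 5 arrays was used. The values are raw probe intensity as deposited by the authors, read with NimbleScan 2.3.19, without background correction or normalization. The other channel of each array was not analysed here. Every position in the files is 0, so the number within each probe identifier set the probe order.

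Running means of 29 probes, and thresholds from 100 seeded shuffles of chromosome 7, were computed on uncorrected intensity in Python (version 3.11.15, with pandas 2.3.3, scipy 1.17.1 and numpy 2.4.6). Windows above the threshold in both duplicates were joined without gaps, as in the study. A place joins positive windows of any array. Arrays have no read depth, and their number limits the precision. limma 3.58.1 in R 4.3.3 (lmFit, eBayes with trend) was fitted on median-centred log2 window means of the 2 untreated and 2 α-amanitin arrays over chromosome 7. The region caller and limma were tested on simulated data. Figures were drawn with matplotlib 3.10.9.

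Named windows are the untreated double positive regions, those double positive in α-amanitin only (none), the 3 highest other DRB windows, the 3 limma windows with the smallest p and the windows at the border. The places positive in 1 array and single probes were named after their values were seen. Members, lists and tests were chosen with earlier results of these data known. Alternatives varied window, averaging, normalization, threshold, seed and arrays.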

Additional observations from a re-analysis of the deposited data

How the results depend on the processing

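The 2 untreated double positive regions became 0 with windows of 15 probes, 1 with windows of 59 probes, a false discovery rate of 0.01 or quantile normalization, 18 with a running median and 5 with probes capped at the 99th percentile. Over 20 other shuffle seeds, tried after seeing the data, they numbered 2 to 5, and 2 in all 20 when regions sharing probes were joined. Of them 1 was double positive in α-amanitin; this became 0 with 15 probes, 14 with the running median, 2 with a threshold from the stretch alone, 2 with capped probes and at most 2 over the seeds. The 2 positive in DRB became 0 with 15 probes, 1 with 59 probes, a false discovery rate of 0.01 or quantile normalization, 17 with the running median and at most 4 over the seeds. Leaving out each array gave 2 to 3 untreated regions, 1 to 2 double positive in α-amanitin (2 without α-amanitin B) and 2 positive in DRB. The mean untreated share of positive windows, 0.205%, became 1.82% with the running median, 0.0425% with 15 probes, 0.0726% at a false discovery rate of 0.01 and 0.371% with capped probes, and was 0.0851% to 0.325% with 1 array left out. The rank correlations of 0.610, 0.596 and 0.605 became 0.762, 0.720 and 0.790 with the running median and 0.804, 0.761 and 0.778 with log2 averaging. The differences from the other parts of the array kept their sign without each array, at -2.57 to -1.95, -3.00 to -2.35 and 0.181 to 0.250 percentage points. The cause of these changes was not tested.

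The limma count of 0 was 14 windows of the stretch (26 of 1991 on the chromosome) with the replicate block and 3 (7 of 1991) with crossed letters, and 0 to 26 with 1 array left out (26 without untreated A and 5 without untreated B). Same-letter arrays did not deviate together (correlation of deviations -0.23 over chromosome 7 and -0.17 in the stretch). Letter and dye coincide, so whether the letters pair the samples cannot be told from these arrays. The window at ranks 10934 to 10962, with an adjusted p of 0.621, had limma adjusted p-values of 0.0469 with the block and 0.0314 with crossed letters, within a range of 0.0314 to 0.998 over its alternatives. For the windows at ranks 14385 to 14413 and 14675 to 14703 the limma adjusted p-values were 3.65e-06 and 0.0153 with the block. They were 0.228 and 0.532 with crossed letters. Same-letter pairs of untreated and α-amanitin arrays correlated at 0.562. A block for the physical array was not run because no 2 of the 5 samples share an array image.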
